A study of Homo sapiens with 6 samples.

Results

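The C/EBP family comprises transcription factors that share a basic region, which contacts DNA, and a leucine zipper, through which they pair with each other. Its 6 members CEBPA, CEBPB, CEBPD, CEBPE, CEBPG and DDIT3 were followed in IMR90 human lung fibroblasts given oncostatin M. They were found by symbol among probe sets of the array that carry exactly 1 gene symbol, and all 6 were measured, each by 1 probe set, out of 18417 genes tested. One group was IMR90 cells given recombinant human oncostatin M at 10 ng/mL as a single dose, and the other was untreated IMR90 cells as control, with 3 arrays each. All samples were of 1 primary fibroblast strain with no genetic change named in the labels, and no source used here gives the time between dose and harvest.

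Oncostatin M is a cytokine of the interleukin-6 family. Its receptor activates JAK kinases and STAT3, and in hepatocytes interleukin-6 type cytokines act on acute phase genes through STAT3, CEBPB and CEBPD. CEBPB was first described as the nuclear factor of the IL6 gene (NF-IL6). CEBPD is an early responder in many cell types and, with CEBPB, stands at the start of the adipogenic cascade, in which CEBPA acts later. CEBPE is a factor of late granulocyte development. CEBPG lacks a transactivation domain and works mainly as a dimer partner, for instance of ATF4. DDIT3, also called CHOP, is induced by ATF4 under stress of the endoplasmic reticulum and forms dimers that do not bind the usual C/EBP sites.

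RefSeq promoter windows were searched for 5 of the 6 members, in 8 windows. CEBPD was left out of this search, so the motif results below do not cover it. Shown are the 250 bases before an annotated start of CEBPB, of CEBPG and of DDIT3, each of which has another window that is not shown. Of the members searched, only CEBPB passed the test below. Sequences run 5′ to 3′ in the direction of transcription. Capitals mark matches to TGACG (core of a CREB and ATF site), TGACTCA (AP-1 site), CCAAT or TATAAA, searched on both strands.

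CEBPB (GRCh38.p14, chr20:50190580-50190829, plus strand): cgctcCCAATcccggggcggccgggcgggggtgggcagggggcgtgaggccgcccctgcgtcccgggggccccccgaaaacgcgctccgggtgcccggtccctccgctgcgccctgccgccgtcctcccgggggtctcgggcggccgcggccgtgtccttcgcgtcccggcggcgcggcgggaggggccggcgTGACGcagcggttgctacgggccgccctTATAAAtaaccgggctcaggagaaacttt
CEBPG (GRCh38.p14, chr19:33373459-33373708, plus strand): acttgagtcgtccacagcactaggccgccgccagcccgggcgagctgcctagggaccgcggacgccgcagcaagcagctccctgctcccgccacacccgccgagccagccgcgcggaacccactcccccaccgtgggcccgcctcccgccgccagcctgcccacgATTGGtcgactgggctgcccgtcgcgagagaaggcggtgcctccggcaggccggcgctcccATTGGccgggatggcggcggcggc
DDIT3 (GRCh38.p14, chr12:57520518-57520767, minus strand): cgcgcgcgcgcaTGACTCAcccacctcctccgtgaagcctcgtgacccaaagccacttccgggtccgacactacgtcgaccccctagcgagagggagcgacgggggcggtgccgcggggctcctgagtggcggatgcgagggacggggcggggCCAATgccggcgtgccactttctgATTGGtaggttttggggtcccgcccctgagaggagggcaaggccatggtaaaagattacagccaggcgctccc

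The CEBPB window shown held TGACG at bases 57 to 53 before the start and TATAAA at bases 29 to 24. These motifs were found in 21.2% and 10.7% of 35116 RefSeq windows of this length. Its CCAAT match lay at bases 245 to 241. The other CEBPB window (chr20:50190333-50190582) held no match to any of the motifs named here. The CEBPG and DDIT3 windows shown held 2 CCAAT matches each, a motif found in 32% of windows. The DDIT3 window also held TGACTCA at bases 238 to 232, found in 4.2% of windows. The STAT consensus TTCNNNGAA, found in 6.57% of all windows, matched in 1 of the 5 members searched, CEBPE, at bases 242 to 234. TGATGNAA, the core of the element bound by C/EBP and ATF dimers, matched in the other window of CEBPG at bases 42 to 35 and in 3.14% of all windows. The palindromic C/EBP site TTGCGCAA was not among the letters of any of the 8 windows and stood in 0.131% of all windows. A match is a string of letters and not a measured site, and these arrays measured no binding.

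Values are log2 expression levels as deposited, and a change is the mean of 3 oncostatin M arrays minus the mean of 3 control arrays with its standard error (SE). Changes were tested with limma, which borrows information on the spread across genes, and a gene was called at a Benjamini-Hochberg adjusted p under 0.05 over all 18417 genes. Since no label names separate cultures, the p-values reflect array-to-array spread that could be technical only, and the number of arrays limits the precision. One array stood apart: oncostatin M 1 was the farthest from its group mates for 61.3% of genes, while each other array was so for 18.9% to 38.7%, and its array weight in limma was 0.226 against 0.723 to 3.22 for the others. Of 10 fibroblast markers, all lay above the range of silent genes in both groups (COL1A1 and FN1 among them), and the 8 epithelial markers lay within it. Some markers of other cell types also lay above it in both groups. They were TEK and CLDN5 of 7 endothelial, CD68 of 9 leukocyte, PLIN1 of 5 adipocyte and APOA1 of 6 hepatocyte markers. TEK averaged 9.04 with oncostatin M and 8.57 in control. Of the fibroblast markers 1 was called higher with limma, the transcription factor TWIST1 (change 0.49, adjusted p = 0.0136), and 1 lower, the growth factor receptor PDGFRB (change -0.37, adjusted p = 0.0253). Of 35 markers of epithelium, endothelium, leukocytes, adipocytes and hepatocytes none was called with limma, and at an unadjusted p under 0.05 TEK, an endothelial receptor, was higher and ALB, the albumin gene, lower. A bulk array cannot tell more cells with a transcript from more transcript per cell.

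After oncostatin M, 2 of the 6 members were higher, CEBPD by 2.39-fold and CEBPB by 1.44-fold. None was lower by limma's adjusted p, nor at an unadjusted p under 0.05. Among all genes tested 1.72% were called higher and 1.7% lower. CEBPA, CEBPE, CEBPG and DDIT3 did not pass the threshold. The groups did not overlap for CEBPD and CEBPB and overlapped for the other 4, and they did not overlap for 18% of all genes, with 7.43% apart and higher.

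CEBPD (probe set 8150592) had log2 levels of 10.27, 10.14 and 10.14 on the oncostatin M arrays, against 8.84, 9.06 and 8.89 on the control arrays. The lowest oncostatin M array stood 1.08 above the highest control array, while the arrays of a group spanned 0.13 with oncostatin M and 0.22 in control. The mean level was 10.19 ± 0.08 with oncostatin M and 8.93 ± 0.11 in control (SD, n = 3 each). The change was 1.25 (SE 0.084, 95% interval 1.06 to 1.45, limma adjusted p = 0.000297), the 38th largest rise of all genes.

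CEBPB (probe set 8063386) had 9.70, 9.81 and 9.81 on the oncostatin M arrays, against 9.23, 9.23 and 9.29 on the control arrays. The groups were 0.42 apart at their nearest, while the arrays of a group spanned 0.10 with oncostatin M and 0.06 in control. The change was 0.52 (SE 0.069, 95% interval 0.37 to 0.68, limma adjusted p = 0.0052), which ranked 242nd among rises. Its arrays lay close together within groups, with a pooled SD of 0.048, smaller than that of all but 8.2% of genes, whereas the pooled SD of CEBPD was 0.10 and the median of all genes 0.11.

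**Figure D1:**
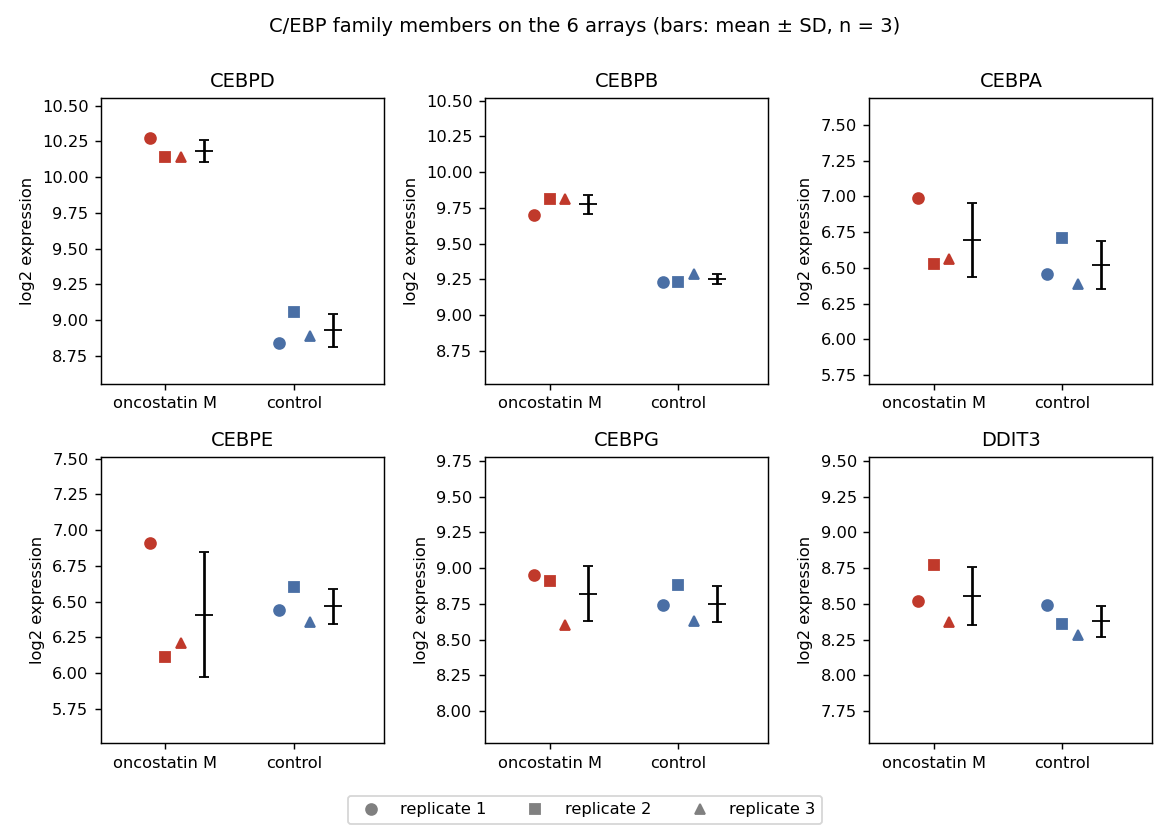
Log2 expression of the 6 members on each array (y axis, every panel spanning 2 log2 units), with oncostatin M left of control, a marker shape for each replicate number, and mean ± SD (n = 3) as bars. CEBPD lies between 10.14 and 10.27 with oncostatin M and between 8.84 and 9.06 in control, and in the panels of CEBPA and CEBPE the array oncostatin M 1 lies above both of its group mates.

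CEBPG (probe set 8027566), the dimer partner without an activation domain, had 8.95, 8.91 and 8.60 on the oncostatin M arrays, against 8.74, 8.88 and 8.63 on the control arrays. The groups overlapped and the lowest value was an oncostatin M one. The change was 0.067 (SE 0.11, limma adjusted p = 0.957), with a 95% interval of -0.19 to 0.33 that lies below the whole interval of CEBPB.

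DDIT3 (probe set 7964460), the stress-induced member, had 8.52, 8.77 and 8.37 on the oncostatin M arrays, against 8.49, 8.36 and 8.28 on the control arrays. The array oncostatin M 2 was the highest of the 6, and oncostatin M 3 lay within the control range. The change was 0.18 (SE 0.11, 95% interval -0.08 to 0.43, limma adjusted p = 0.7), which does not show that DDIT3 stayed the same.

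CEBPA (probe set 8036004), the factor of hepatocytes, adipocytes and myeloid progenitors, had 6.99, 6.53 and 6.56 on the oncostatin M arrays, against 6.46, 6.71 and 6.39 on the control arrays. Its highest value came from oncostatin M 1, the array that stood apart. The change was 0.17 (SE 0.14, 95% interval -0.15 to 0.50, limma adjusted p = 0.814), and without that array it was 0.03 (adjusted p = 0.954).

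CEBPE (probe set 7977928) had 6.91, 6.11 and 6.21 on the oncostatin M arrays, against 6.44, 6.60 and 6.36 on the control arrays. The oncostatin M arrays held both the highest value and the lowest ones, and their SD of 0.44 exceeded that of 0.12 in control. The change was -0.057 (SE 0.20, 95% interval -0.51 to 0.39, limma adjusted p = 0.979). Without oncostatin M 1 it was -0.31 (adjusted p = 0.117), so both the size and its nearness to 0 rest on that array. The pooled SD of CEBPE was larger than that of 99% of genes.

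As a rough mark of background, 409 genes that fibroblasts are not known to use, for olfactory receptors and keratin-associated proteins, gave a range of silent levels. The percentile of 95 of these genes was 6.77 with oncostatin M and 6.74 in control. CEBPA averaged 6.70 ± 0.26 with oncostatin M and 6.52 ± 0.17 in control (SD, n = 3 each). CEBPE averaged 6.41 ± 0.44 with oncostatin M and 6.46 ± 0.12 in control (SD, n = 3 each). Both lay below that mark in both groups, so a change of either may not be measurable here. The other 4 members lay above that mark in both groups. Probe sets differ in how brightly they report a transcript, so no order of abundance among the members is read from these levels.

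**Figure D2:**
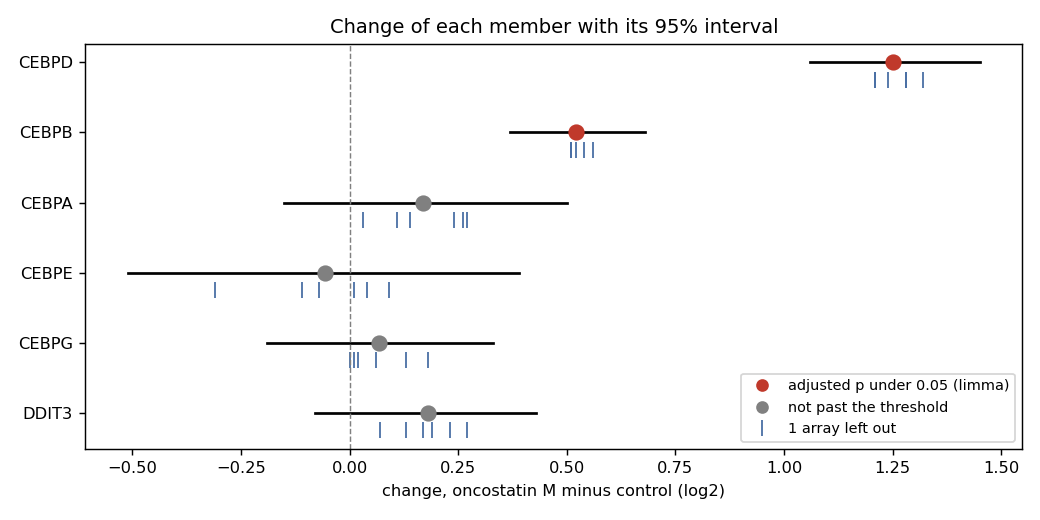
Change of each member (x axis, oncostatin M minus control, log2) as a point with its 95% interval from limma, red where the adjusted p is under 0.05, and below it the change with each of the 6 arrays left out in turn as blue ticks. CEBPD (1.25) and CEBPB (0.52) lie to the right of 0 with narrow ticks, and the ticks of CEBPE run from -0.31 to 0.09.

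Whether CEBPD moved apart from its relatives was measured within each array, as the log2 level of CEBPD minus that of another member. Against CEBPB this difference was 0.57, 0.34 and 0.33 on the oncostatin M arrays, against -0.38, -0.17 and -0.39 on the control arrays. CEBPD thus gained on CEBPB by 0.73, a ratio of 1.66 between the fold changes, and the groups were 0.51 apart. The gain was 1.19 against CEBPG and 1.08 against DDIT3, with all 3 oncostatin M arrays above all 3 control arrays. Against CEBPA it was 1.08 and against CEBPE 1.31, and the arrays were apart here too, but both of these members lay within the range of silent genes, so any change of their own may not be measurable. With 1 array left out, the value against CEBPE ran from 1.18 to 1.52. An exact two-sided permutation test gave p = 0.1 for each (adjusted p = 0.1 over the 5 differences), the smallest that 3 against 3 arrays can give, so this test cannot pass 0.05. All 5 share the CEBPD values and are not independent.

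**Figure D3:**
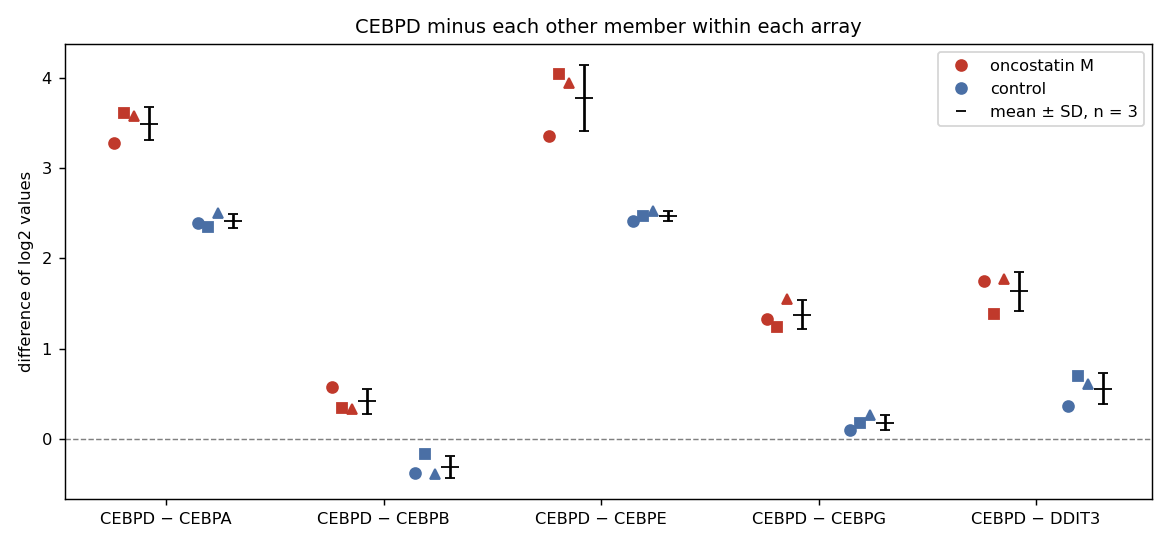
Log2 level of CEBPD minus that of each other member within each array (y axis), oncostatin M in red left of control in blue, with mean ± SD (n = 3) as bars and marker shapes for replicate numbers. In every pair the oncostatin M arrays lie above the control arrays, by 0.73 on average against CEBPB and by 1.19 against CEBPG. CEBPA and CEBPE lie within the range of silent genes, and the height of a pair depends on its probe sets.

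STAT3 is known to act on the CEBPD promoter. A list of ligand, receptor, JAK and STAT genes also held the response genes SOCS3, PIM1, JUNB, BCL3 and BCL6. Of its 15 measured genes 8 were higher and none lower (53.3%, against 3.42% of all genes in either direction). The median change was 0.45, against 0.00057 for all genes. Those higher were the response genes with OSMR, JAK2 and STAT3, while OSM, IL6ST, LIFR, JAK1, TYK2, STAT5A and STAT5B did not pass. The list was chosen with earlier results of these data known, so its share of calls is not a test of the route. At an unadjusted p under 0.05 (limma) 9 of the 15 genes were higher and 1 lower, where 11.6% of all genes reach that mark in either direction. SOCS3, which inhibits JAK kinases as a STAT3 target, had 9.58, 9.70 and 9.63 with oncostatin M, against 7.54, 7.62 and 7.59 in control. Its change was 2.06 (SE 0.07), beside 1.25 for CEBPD. PIM1, a kinase that promotes survival, had 9.75, 9.72 and 9.34 with oncostatin M, against 8.29, 8.29 and 8.21 in control. Its change was 1.34 (SE 0.11), and that of JUNB, an AP-1 subunit, was 1.08 (SE 0.094). BCL3, a nuclear partner of NF-kappaB, changed by 0.86 (SE 0.084). STAT3 and JAK2, which also passed, changed by 0.45 (SE 0.07) and 0.48 (SE 0.093), beside 0.52 for CEBPB. Differences between these changes were not tested.

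Proteins that pair with C/EBP factors or control them did not pass the threshold for any of 20 genes with limma (median 0.019), and 4 were higher and none lower at an unadjusted p under 0.05, a mark that 11.6% of all genes reach. These were ATF3, a stress-induced bZIP repressor, with a change of 0.32 (adjusted p = 0.108), RPS6KA3, the kinase RSK2 that phosphorylates CEBPB, with 0.27 (0.286), BATF3 with 0.26 (0.198), and TRIB1, an adaptor that directs C/EBP proteins to degradation, with 0.22 (0.411). RPS6KA3 passed without oncostatin M 1 (0.36, limma adjusted p = 0.0427) and with array weights (0.34, 0.0128), and ATF3 passed with array weights (0.32, 0.0251). ATF4, the partner of CEBPG and inducer of DDIT3, had 10.89, 10.95 and 10.62 with oncostatin M, against 10.80, 10.81 and 10.69 in control. Its groups overlapped and its change was 0.051 (SE 0.10, adjusted p = 0.963). CELF1, an RNA-binding protein that acts on the choice of CEBPB protein isoform, had a change of -0.12 (adjusted p = 0.636). Isoforms of CEBPB arise in translation and were not measured by these arrays.

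Around DDIT3, no kinase or phosphatase of eIF2alpha passed among 7 (median -0.019) and no chaperone or unfolded protein response gene among 18 (median -0.045), and none of either list reached an unadjusted p under 0.05 with limma. HSPA5, the main chaperone of the endoplasmic reticulum, had a change of -0.07 (SE 0.068). Of 23 ATF4 targets, 4 were higher and none lower (17.4% past the threshold in either direction, against 3.42% of all genes, median 0.084). They were SLC7A11 and SLC3A2, which form the cystine importer, with changes of 0.92 (SE 0.14) and 0.39 (SE 0.066), VLDLR, a lipoprotein receptor, with 0.81 (SE 0.14), and WARS1, the tryptophanyl-tRNA synthetase, which interferon also induces, with 0.77 (SE 0.083). SLC7A11 had 11.91, 12.11 and 12.18 with oncostatin M, against 11.05, 10.93 and 11.47 in control. The groups did not overlap, but control 3 lay well above the other controls. CHAC1, ASNS and TRIB3, targets that ATF4 induces with DDIT3 or beside it, had changes of 0.084, 0.16 and 0.10 and did not pass. DDIT4 and PSAT1 had changes of 0.63 and 0.28 (limma adjusted p = 0.305 and 0.705). Both were called higher without oncostatin M 3 (0.91 and 0.50, adjusted p = 0.0223 and 0.0483). At an unadjusted p under 0.05 (limma) 6 of the 23 were higher and none lower, where 11.6% of all genes reach that mark. Of the 4 genes called as reported, only WARS1 kept its call without each of the 6 arrays. The count of ATF4 targets called higher was 1 without control 1 and 2 without control 2, control 3 or oncostatin M 2.

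Of 7 genes linked to DDIT3 in stress-induced death, 1 was lower and none higher (14.3% past the threshold, against 3.42% of all genes, median 0.037). TNFRSF10B, a death receptor that DDIT3 is known to induce, had 9.25, 9.34 and 9.35 with oncostatin M, against 9.69, 9.82 and 9.88 in control. All oncostatin M arrays lay below all control arrays, and it fell by 0.48 on the log2 scale (SE 0.078, limma adjusted p = 0.0137), a call lost without control 2 (adjusted p = 0.0729) or control 3 (0.0685). ERO1A and BBC3 had changes of 0.037 and 0.042 and did not pass.

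**Figure D4:**
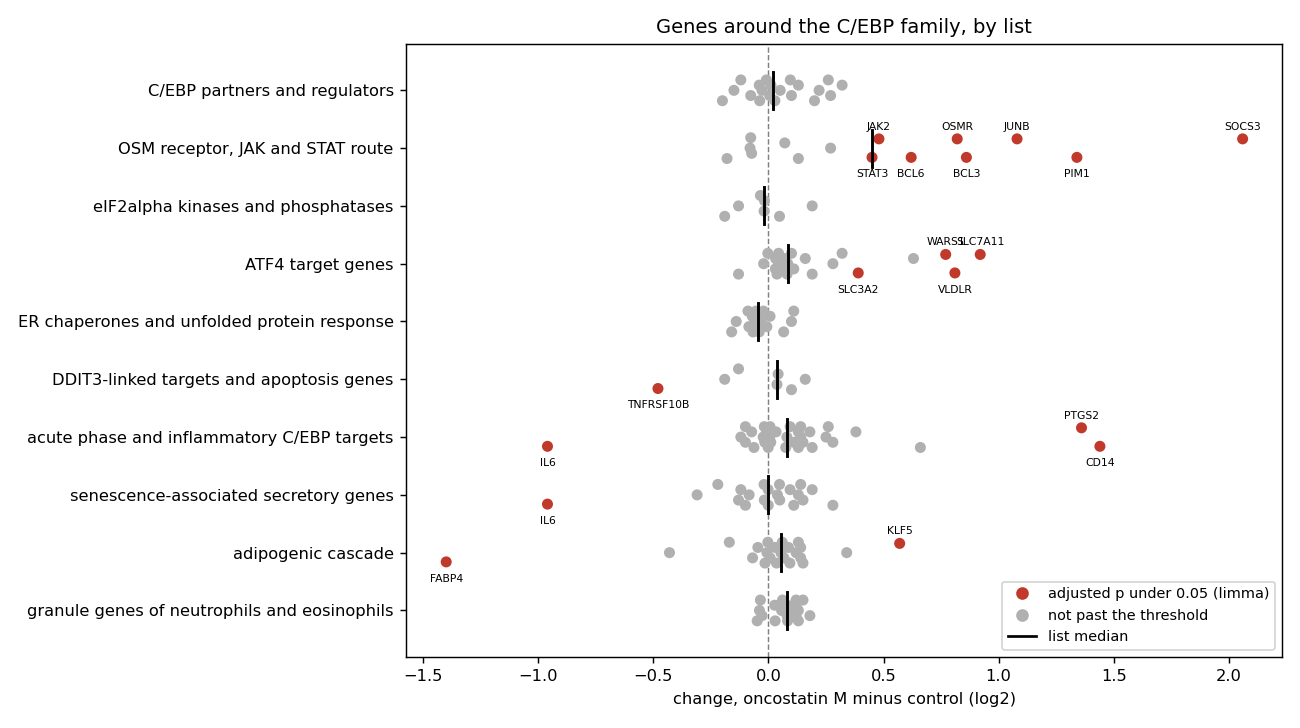
Changes (x axis, oncostatin M minus control, log2) of the measured genes of 10 lists around the C/EBP family, red and named where the adjusted p is under 0.05 with limma and grey otherwise, with the median of each list as a bar and points spread vertically only to keep them apart. Of the list of the JAK and STAT route with its response genes 8 of 15 genes are red and to the right of 0. The lists of partners, eIF2alpha enzymes, chaperones and granule genes hold no red point.

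Among 33 acute phase and inflammatory genes known as C/EBP targets, 2 were higher and 1 lower (9.09% past the threshold, against 3.42% of all genes, median 0.08). CD14, a receptor for bacterial lipopolysaccharide, had 7.92, 7.99 and 7.57 with oncostatin M, against 6.48, 6.49 and 6.19 in control. Its change was 1.44 (SE 0.13). CD14 is also a monocyte marker. Of 9 leukocyte markers 8 lay within the range of silent genes in both groups, with PTPRC at a mean of 3.86 with oncostatin M and 3.83 in control. The remaining marker, CD68, lay above that range in both groups. PTGS2, the inducible cyclooxygenase, had 7.58, 7.67 and 7.83 with oncostatin M, against 6.35, 6.27 and 6.37 in control, a change of 1.36 (SE 0.084). IL6, the gene after which NF-IL6 was named, had 6.28, 6.58 and 6.49 with oncostatin M, against 7.50, 7.26 and 7.47 in control. For all 3 genes the groups were apart, and IL6 fell by 0.96 (SE 0.10, limma adjusted p = 0.00193). CD14 and PTGS2 in control and IL6 with oncostatin M lay within the range of the silent genes, so the sizes are uncertain. At an unadjusted p under 0.05 (limma) 4 of the 33 were higher and 1 lower, where 11.6% of all genes reach that mark. TNFAIP6 had a change of 0.66 (SE 0.18, limma adjusted p = 0.12) with its groups apart. It was called higher with the replicate block (0.66, adjusted p = 0.0466). SAA1, the acute phase serum amyloid, was at 3.78 ± 0.08 with oncostatin M and 3.77 ± 0.04 in control (SD, n = 3 each), near the bottom of the scale.

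CEBPB is a known regulator of the senescence-associated secretome in fibroblasts. Of 21 genes of this secretome, 1 was lower, IL6 as above, and none higher with limma (4.76% past the threshold, against 3.42% of all genes, median -0.00085). At an unadjusted p under 0.05 (limma), which 11.6% of all genes reach, 2 were higher and 3 lower. With a variance prior that follows the expression level, PLAUR was called lower (-0.31, limma adjusted p = 0.0241) and IGFBP4 higher (0.19, 0.035). PLAUR was also called lower with each filter on dim genes (adjusted p = 0.0495 and 0.0369). Of 23 genes of the adipogenic cascade, 1 was higher and 1 lower (8.7% past the threshold, against 3.42% of all genes, median 0.054). KLF5, which CEBPB and CEBPD are known to induce in mouse adipogenesis, had 8.65, 8.60 and 8.69 with oncostatin M, against 8.12, 8.07 and 8.02 in control. Its groups did not overlap and its change was 0.57 (SE 0.069, limma adjusted p = 0.00346). PPARG, the nuclear receptor that C/EBP factors induce there, had a change of -0.17 (adjusted p = 0.816). FABP4, a lipid carrier of adipocytes, had 4.50, 5.10 and 5.08 with oncostatin M, against 6.17, 5.80 and 6.90 in control. It fell (limma adjusted p = 0.0316), within the range of silent genes in both groups, and the call was lost without control 1 (0.138), oncostatin M 2 (0.0506) or oncostatin M 3 (0.056). CD36 (0.34, limma adjusted p = 0.223) and KLF4 (-0.43, 0.0617) did not pass as reported. Without oncostatin M 1, CD36 was called higher (0.43, adjusted p = 0.0422) and KLF4 lower (-0.46, 0.0451). Array weights gave both calls too (0.50, adjusted p = 0.00856, and -0.54, 0.00717). KLF4 was also called lower with quantile normalization (adjusted p = 0.0448) and with the filter on dim genes set by silent genes (0.0375). No gene of 19 granule genes of neutrophils and eosinophils, the domain of CEBPE, passed the threshold or reached an unadjusted p under 0.05 (limma, median 0.082).

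The genes whose pattern over the 6 arrays lay nearest to CEBPD, by the Euclidean distance of log2 values centred on each gene's mean, were CEMIP (0.165), which takes part in hyaluronan breakdown, the laminin chain LAMA4 (0.186), the complement-related C1RL (0.234), the interferon-induced IFITM1 (0.243) and MASP1 (0.251), a protease of the lectin pathway. Their changes ran from 1.08 for C1RL to 1.31 for LAMA4. Nearest to CEBPB were RNF24 (0.0748), a RING finger protein, ARID5B (0.0806), a DNA-binding protein, the GTPase RAB30 (0.112), the mitochondrial iron-sulfur protein CISD1 (0.119) and ACSL4 (0.127), a fatty acyl-CoA ligase. Their changes ran from 0.47 to 0.54. All 10 passed the threshold with limma, and such likeness over 6 arrays of 2 groups says mainly that the sizes of the changes were alike.

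**Figure D5:**
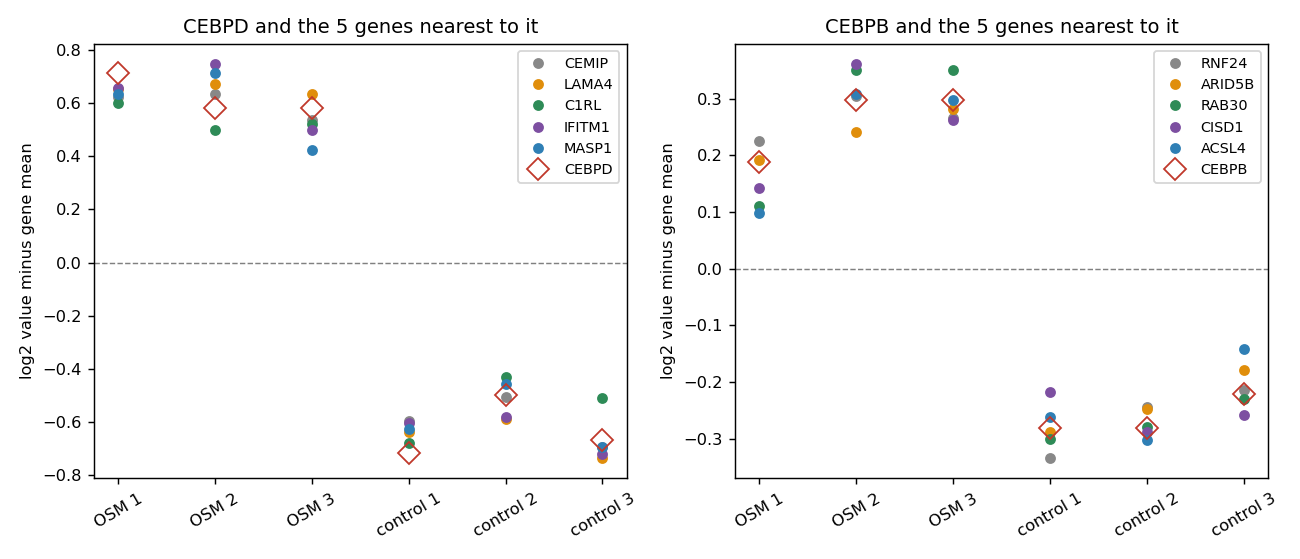
Log2 values minus each gene's mean (y axis) on the 6 arrays (x axis, OSM for oncostatin M), for CEBPD with its 5 nearest genes on the left and CEBPB with its 5 nearest on the right, open diamonds marking the member. On the left the diamonds and dots lie between about the same heights on each array, as do those on the right, whose scale is smaller (changes of 0.47 to 0.54, against 1.08 to 1.31 on the left).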

How the data were processed

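Total RNA of IMR90 cells was measured on 6 Affymetrix arrays. Each deposited value is the log2 level of a probe set on an array. The submitters' processing notes name RMA and the program Affymetrix Expression Console 1.1 as the authors' tools. RMA corrects background, aligns the arrays' distributions and summarises probes, which makes a change relative to the rest of the array and tends to understate it at low levels. Array medians lay between 6.54 and 6.66. No source used here names the genome build behind the probe sets.

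Of 33297 probe sets, 19460 had exactly 1 symbol in the platform's gene table, and each of 18417 genes was represented by its probe set of highest mean, with no filter. Groups and replicate numbers came from the titles. The group was the only term in limma 3.58.1 (R 4.3.3, lmFit and eBayes, two-sided), checked on simulated arrays. Permutation tests used SciPy 1.17.1. Silent genes were 409 olfactory receptor and keratin-associated protein genes. Promoter windows came from RefSeq (GRCh38.p14).

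All members were named. Per list, up to 4 genes with the largest change among those called were named, with the 5 genes nearest in pattern to each called member. Other genes named were chosen after their values were seen. The members and the 10 gene lists were chosen with earlier results of these data known. Lists share genes (IL6, PPP1R15A, TRIB3 and ATF3 among them). Alternatives covered the normalization, probe set, filters on dim genes, variance prior, array weights, a replicate block, the threshold and each array left out.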

Additional observations from a re-analysis of the deposited data

How the results depend on the processing

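CEBPD and CEBPB kept their direction and their call under every alternative run, and no other member passed under any of them. With 1 array left out, the change of CEBPD ran from 1.21 to 1.32 (limma adjusted p at most 0.00644) and that of CEBPB from 0.51 to 0.56 (at most 0.0441, without control 1). Under the other alternatives they ran from 1.24 to 1.28 and from 0.51 to 0.56. The change of CEBPG was -0.05 with array weights (0.067 as reported), that of CEBPE ran from -0.31 to 0.09 with 1 array left out, and both filters on dim genes left CEBPA and CEBPE untested. The gain of CEBPD on CEBPB ran from 0.65 to 0.80 with 1 array left out. Counts over all genes moved more than the members did. As reported 316 genes were higher and 314 lower. With 1 array left out 156 to 400 were higher and 105 to 332 lower, both lowest without control 1. With array weights 667 were higher and 610 lower, and at a threshold of 0.01 these were 175 and 112, with 1 distinct gene of the 10 lists lower (3 as reported). With every probe set fitted on its own 176 probe sets were lower. Deviations of same-numbered arrays correlated at 0.0635, -0.456 and 0.511 for replicates 1, 2 and 3. Those of differently numbered arrays were not computed, so these values do not decide whether replicate numbers pair the arrays. In the fit with the replicate block the change of CEBPD was 1.25 (adjusted p = 0.00528) and that of CEBPB 0.52 (adjusted p = 0.0267). The causes of these shifts were not tested. The 3 arrays in each group and levels near those of silent genes limit what can be said of CEBPA and CEBPE.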

Other observations

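Names near those of the family belong to other transcripts. CEBPZ (probe set 8051528), which has a symbol once also used for DDIT3, encodes a CCAAT-binding factor outside the bZIP class. It had 7.06, 7.48 and 7.55 on the oncostatin M arrays, against 7.33, 7.24 and 7.41 on the control arrays. The groups overlapped, and the change was 0.038 (SE 0.13, limma adjusted p = 0.979). CEBPA-DT (probe set 8027564), the long non-coding RNA that runs away from CEBPA on the opposite strand, had 5.25, 4.83 and 5.16 with oncostatin M, against 5.28, 5.37 and 5.37 in control. Its groups did not overlap, by 0.03, and its change was -0.26 (SE 0.11, limma adjusted p = 0.413), at a level within the range of silent genes. Both were chosen after their values were seen.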
